A study of Rattus norvegicus with 18 samples.

Results

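The nuclear-encoded subunits of mitochondrial complexes II to V were measured as mRNA in rat motor cortex at day 7 and day 30 after injury, in a series on spinal cord injury. Members were the gene symbols of the count tables that start with Uqcr, Cox4 to Cox8 or Atp5, or that read Sdha, Sdhb, Sdhc, Sdhd or Cyc1. The rule used names and no measured value. It gave 50 symbols of 31201 in either table, 44 of 12560 at day 7 and 49 of 31038 at day 30. By complex these were 4 of complex II, 9 of complex III, 20 of complex IV and 17 of complex V. The names also take in a few genes that are not subunits, namely the supercomplex factor Cox7a2l, its relative Cox7a2l2, the pseudogene Cox6c-ps1, Atp5s (RefSeq Dmac2l, ATP synthase factor B) and Atp5sl (RefSeq Dmac2, which takes part in complex I assembly).

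Complexes III and IV pass electrons down the respiratory chain and pump protons across the inner mitochondrial membrane, complex II feeds in electrons from succinate without pumping, and complex V uses the proton gradient to make ATP. Complex II is built wholly of nuclear-encoded subunits. Complexes III, IV and V also hold subunits encoded by mitochondrial DNA, around which nuclear-encoded core and small accessory subunits are assembled. Neurons spend much of their energy on ion pumping and depend heavily on this machinery, and several complex IV subunits exist as pairs of tissue isoforms.

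Libraries came from polyA RNA of motor cortex, which the series describes as enriched for primary neurons and as taken after injury. At day 7 there were 3 inj and 3 Sham libraries, all male. At day 30 there were 3 female In, 3 female S, 3 male In and 3 male S libraries. In and S are the labels' own letters, which the sources used here do not spell out, and strain, age and how the injury was made are not given there either. No label says that libraries of a group are separate animals, so p-values measure the spread between these libraries, and number 1 appears on both Sham 1 and Sham 1-RNA.

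Counts assigned to genes totalled 14650528 to 17013273 in inj libraries and 2683105 to 3014083 in Sham libraries, so depth and group go together at day 7. At day 30 totals ran between 16847123 and 18211986 in females and between 14532252 and 27849794 in males. Levels are CPM, counts relative to library size, with that size adjusted by TMM, a factor per library that holds most genes level. A count of 3 equals at most 0.186 CPM in inj, 1.23 CPM in Sham and 0.288 CPM at day 30. All 14 pan-neuronal markers were listed in both tables, with summed levels of 4106 to 5830.0 CPM in inj and 5560.2 to 5843 CPM in Sham libraries, and markers of glia and vessels were present in every library. Male In 1 stood apart at day 30: its oligodendrocyte markers summed to 10616 CPM, against 48061 to 77727 CPM in the other male libraries. In bulk RNA, fewer cells of a type and less RNA per cell cannot be told apart.

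Promoters of members that changed or are compared below are printed from RefSeq (build GRCr8, 250 bases before to 50 after the start, in the direction of transcription), because NRF1 and ETS-family factors such as GABPA are known regulators of respiratory chain genes. Of the 50 members, all matched a RefSeq gene, 17 of them under a newer name, and 41 had a promoter entry. Capitals mark matches, on either strand, to the NRF1 motif (GCGCA, then any base, then GCGC) or CCGGAAG (the ETS motif, which reads CTTCCGG on the other strand). The first 3 belong to complex IV genes that rose at day 7, and Sdha encodes the flavoprotein of complex II.
Cox4i1 (GRCr8, chr19:65630133-65630432, plus strand): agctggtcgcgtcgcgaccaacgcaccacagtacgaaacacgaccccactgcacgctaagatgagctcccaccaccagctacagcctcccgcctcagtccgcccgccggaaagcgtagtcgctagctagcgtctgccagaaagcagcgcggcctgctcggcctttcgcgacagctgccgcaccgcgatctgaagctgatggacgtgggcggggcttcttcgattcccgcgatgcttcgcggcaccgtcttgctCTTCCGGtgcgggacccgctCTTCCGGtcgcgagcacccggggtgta
Cox8a (GRCr8, chr1:213833574-213833873, minus strand): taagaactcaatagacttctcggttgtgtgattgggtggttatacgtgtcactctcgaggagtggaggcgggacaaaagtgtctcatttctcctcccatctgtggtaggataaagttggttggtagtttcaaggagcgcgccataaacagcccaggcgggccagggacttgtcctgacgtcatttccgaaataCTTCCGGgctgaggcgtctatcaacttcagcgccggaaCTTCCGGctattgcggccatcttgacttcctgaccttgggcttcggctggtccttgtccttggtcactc
Cox7a2 (GRCr8, chr8:89601100-89601399, minus strand): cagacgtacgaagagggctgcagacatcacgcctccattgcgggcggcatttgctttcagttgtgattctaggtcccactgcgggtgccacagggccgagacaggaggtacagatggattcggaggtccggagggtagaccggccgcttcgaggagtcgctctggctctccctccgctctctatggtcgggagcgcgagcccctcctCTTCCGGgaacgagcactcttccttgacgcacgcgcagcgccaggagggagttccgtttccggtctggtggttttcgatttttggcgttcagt
Sdha (GRCr8, chr1:30764303-30764602, plus strand): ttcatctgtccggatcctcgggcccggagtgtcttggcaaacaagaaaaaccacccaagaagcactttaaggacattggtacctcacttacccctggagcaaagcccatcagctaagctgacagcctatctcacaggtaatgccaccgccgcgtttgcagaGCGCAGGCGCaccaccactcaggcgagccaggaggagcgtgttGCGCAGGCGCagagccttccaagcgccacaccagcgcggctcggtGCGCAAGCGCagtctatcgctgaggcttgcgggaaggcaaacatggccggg

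The printed promoters were chosen after values were seen and stand for no complex. The ETS motif was found in 13 of the 41 member promoters (31.7%), which were Sdhb and Sdhd of complex II, Uqcrc2, Uqcrh and Uqcrq of complex III, Cox4i1, Cox5b, Cox7a2 and Cox8a of complex IV, and Atp5a1, Atp5i, Atp5j and Atp5l of complex V, and in 9.22% of the promoters of all 27457 genes with an entry. The NRF1 motif was found in 7 members (17.1%), which were Sdha, Uqcrc1, Atp5c1, Atp5g2, Atp5g3, Atp5i and Atp5o, and in 4.71% of all promoters. The YY1 motif AAGATGGCG was found in 3 members (7.32%) and 1.93% of all promoters, and the ERR motif TCAAGGTCA in 2 members (4.88%) and 0.412% of all promoters. Atp5g3 and Sdhd held the ERR motif. Of the ETS members, only Cox4i1, Cox7a2 and Cox8a rose at day 7, and Cox4i2, Cox6a1 and Uqcr11, which rose too, had no promoter entry. None of the 4 motifs contains another. A match describes these letters in this window and was not matched for base composition.

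At day 7, Cox4i2, Cox6a1, Cox8a, Cox4i1 and Cox7a2 of complex IV and Uqcr11 of complex III rose in inj relative to Sham libraries, and Atp5s fell. These were 7 of 44 members (15.9%) past an adjusted p of 0.05 (edgeR's quasi-likelihood test, Benjamini-Hochberg over 11786 genes), against 34.7% of all genes tested. In one direction, 6 of 44 rose against 19.3% of all genes, and 1 fell against 15.4%. The median member log2 fold change was 0.0049, against -0.0020 for all genes, and 23 of 44 were positive, against 49.9% of all genes. Within complex IV 5 of 14 members tested were called (35.7%), all of them higher, against 34.7% of all genes called in either direction and 19.3% that rose. None of complex IV fell, against 15.4% of all genes. By complex the median was -0.25 for II, -0.10 for III, 0.43 for IV and -0.03 for V.

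**Figure D1:**
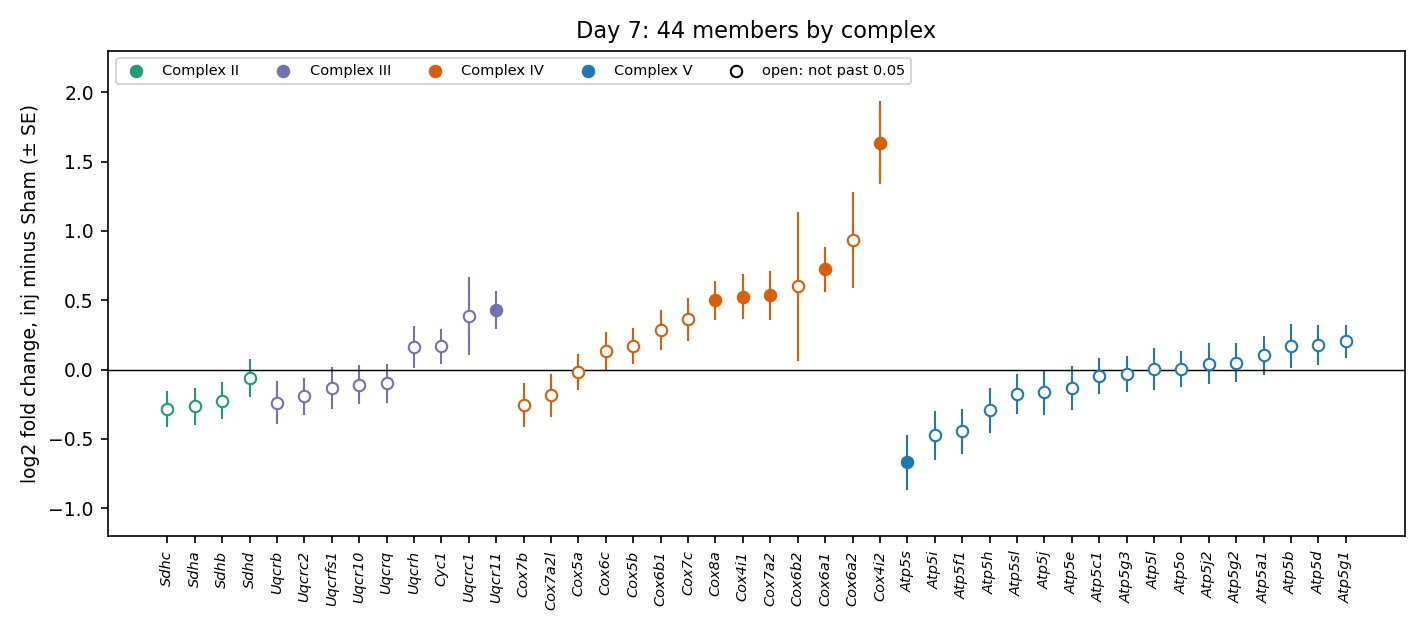
Log2 fold change of inj minus Sham (vertical axis, bars ± SE) for each of the 44 members in the day 7 table, ordered by complex and by size. Filled points passed an adjusted p of 0.05: 5 in complex IV and 1 in complex III above zero, and Atp5s in complex V below it.

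Subunit IV of cytochrome c oxidase, the first nuclear-encoded subunit to join the catalytic core, has the common isoform Cox4i1 and the isoform Cox4i2, known from lung and, in mouse, from the mural cells of vessels. Cox4i2 stood at 10.99, 12.9 and 17.98 CPM in inj libraries 2, 3 and 4, against 3.28, 4.73 and 5.39 CPM in Sham libraries 1, 1-RNA and 3. All inj libraries were above all Sham libraries, with a log2 fold change of 1.64 ± 0.30 (SE, adjusted p = 0.0022). Cox4i1 stood at 934, 941 and 999 CPM in inj libraries 2, 3 and 4, against 719, 569 and 709 CPM in Sham libraries 1, 1-RNA and 3. Its groups did not overlap either, and its log2 fold change was 0.53 ± 0.16 (SE, adjusted p = 0.03). Counts of Cox4i2 were 8 to 14 in Sham libraries, so its level there carries wide counting error. Cox4i2 made up 1.16%, 1.35% and 1.77% of the counts of the pair in inj libraries 2, 3 and 4, against 0.454%, 0.824% and 0.754% in Sham libraries 1, 1-RNA and 3. The share averaged 1.43% ± 0.309 in inj and 0.677% ± 0.197 in Sham libraries (SD, n = 3 each, two-sided exact permutation p = 0.1, the smallest that 3 against 3 allows, and 0.5 adjusted over 10 comparisons of isoform shares). Both isoforms were higher in inj libraries, and a share within a library does not depend on the scaling.

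Markers of other cell types moved at day 7 too. All 12 pericyte and smooth muscle markers rose, with summed levels of 1433 to 1609.6 CPM in inj and 237 to 348 CPM in Sham libraries. All 10 endothelial markers rose (1974 to 2489 CPM in inj, 301 to 343 CPM in Sham), as did 13 of 14 microglia and macrophage markers (3793 to 4037 CPM in inj, 758 to 965 CPM in Sham). Of fibroblast and meningeal markers 5 of 7 rose (313 to 392 CPM in inj, 178 to 396 CPM in Sham). Of oligodendrocyte markers 1 of 12 rose and 4 fell (61378 to 77471 CPM in inj, 71085 to 208514 CPM in Sham). Of astrocyte markers 4 of 10 rose and 4 fell (2993 to 4003 CPM in inj, 6219 to 6871 CPM in Sham). No marker of these lists was at 0 in all day 7 libraries. Neuronal markers were called as well. Of 14 pan-neuronal markers 10 were not called, and as many of the others rose as fell. Their summed levels, given above, overlapped between inj and Sham libraries. The pan-neuronal markers with the smallest p, Nefm (-1.36, adjusted p = 0.0022) and Nefl (-0.95, adjusted p = 0.0056), fell. Of 10 excitatory neuron markers 1 fell, Rorb (-1.33, adjusted p = 0.0020), and 1 rose, Slc17a7 (1.06, adjusted p = 0.0037). That list summed to 3994 to 5187 CPM in inj and 3477 to 4066 CPM in Sham libraries. The part of all these markers in the rise of Cox4i2 and of the other complex IV subunits was not tested.

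Subunit VIa has the common isoform Cox6a1 and the isoform Cox6a2, known from heart and skeletal muscle and, in mouse, from parvalbumin interneurons. Cox6a1 stood at 880.2, 880.1 and 873 CPM in inj libraries 2, 3 and 4, against 593, 445 and 557 CPM in Sham libraries 1, 1-RNA and 3. The inj libraries lay within a narrow band above every Sham library, and the log2 fold change was 0.72 ± 0.16 (SE, adjusted p = 0.0069). Cox6a2 stood at 7.82, 4.64 and 5.33 CPM in inj libraries 2, 3 and 4, against 3.69, 2.91 and 2.69 CPM in Sham libraries 1, 1-RNA and 3. It was higher in every inj library but did not pass, at 0.94 ± 0.35 (SE, adjusted p = 0.06) and with 7 to 9 counts in Sham libraries. Cox6a2 was 0.881%, 0.525% and 0.608% of the counts of its pair in inj libraries 2, 3 and 4, against 0.618%, 0.650% and 0.481% in Sham libraries 1, 1-RNA and 3, so the shares overlapped. Of the parvalbumin and fast-spiking markers, 4 of 10 fell and none rose, with summed levels of 153 to 206 CPM in inj and 289 to 325 CPM in Sham libraries. Those with the smallest adjusted p were Gad1 (-1.17 ± 0.18 SE, adjusted p = 0.00081) and Gad2 (-2.14 ± 0.37 SE, adjusted p = 0.0016). These 2 genes are not particular to parvalbumin cells. None of the 4 muscle markers tested passed.

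Cox8a, the common isoform of the smallest complex IV subunit, stood at 524, 470.2 and 519 CPM in inj libraries 2, 3 and 4, against 365, 328 and 379 CPM in Sham libraries 1, 1-RNA and 3. Cox7a2, the common isoform of subunit VIIa, stood at 187, 211 and 207 CPM in inj libraries 2, 3 and 4, against 166, 104 and 149 CPM in Sham libraries 1, 1-RNA and 3. Neither gene's groups overlapped, and their log2 fold changes were 0.50 ± 0.14 (SE, adjusted p = 0.022) and 0.54 ± 0.18 (SE, adjusted p = 0.041). Cox7c, another small subunit, was also higher in every inj library, at 0.36 ± 0.15 (SE, adjusted p = 0.097), without passing. Cox6b1, which faces the intermembrane space, stood at 172, 168 and 189.9 CPM in inj libraries 2, 3 and 4, against 168, 132 and 135 CPM in Sham libraries 1, 1-RNA and 3. Its testis isoform Cox6b2 stood at 1.68, 2.08 and 2.67 CPM in inj libraries 2, 3 and 4, against 0.819, 0.727 and 2.69 CPM in Sham libraries 1, 1-RNA and 3, with 2 to 7 counts in Sham libraries. Both pairs of groups overlapped, and neither gene passed (0.28 ± 0.14 SE, adjusted p = 0.16 and 0.60 ± 0.54 SE, adjusted p = 0.42). Cox5a, Cox5b, Cox6c, Cox7b and Cox7a2l did not pass either, with log2 fold changes between -0.26 and 0.17.

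**Figure D2:**
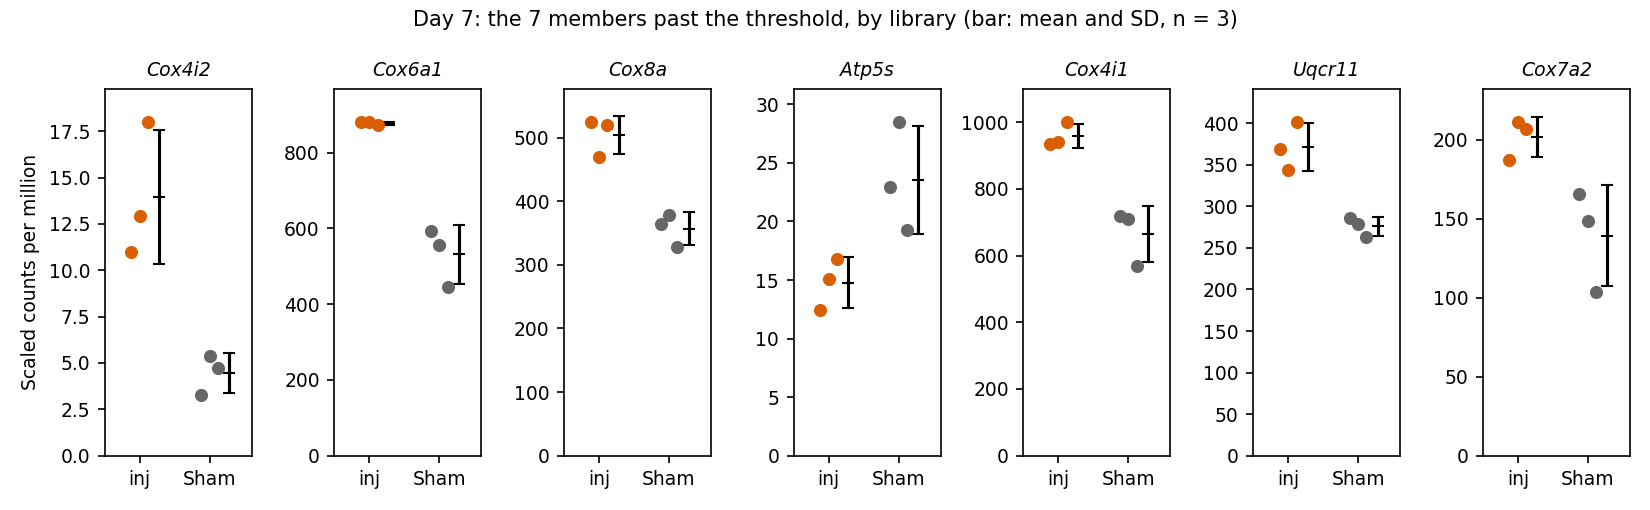
Scaled CPM (vertical axis, from 0, own scale per panel) of the 7 members past the threshold at day 7, in order of adjusted p, with 1 point per library and bars for mean and SD (n = 3). In every panel the inj points lie apart from the Sham points, above them in 6 genes and below them in Atp5s.

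In complex III, Uqcr11, a small accessory subunit, stood at 369, 344 and 401 CPM in inj libraries 2, 3 and 4, against 286, 264 and 279 CPM in Sham libraries 1, 1-RNA and 3. It was the complex III member that passed, at 0.43 ± 0.14 (SE, adjusted p = 0.036). The haem carrier Cyc1 (0.17), the iron-sulphur protein Uqcrfs1 (-0.13), the core proteins Uqcrc1 (0.39) and Uqcrc2 (-0.19), and the small subunits Uqcrb, Uqcrh, Uqcrq and Uqcr10, between -0.24 and 0.16, did not pass. Uqcrc1 varied within groups, standing at 206, 113 and 203 CPM in inj libraries 2, 3 and 4, against 150.4, 163 and 85.8 CPM in Sham libraries 1, 1-RNA and 3, and was lowest in the library numbered 3 of each group.

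All complex II subunits had log2 fold changes below zero under TMM scaling, and none passed, but with levels relative to library totals the log2 ratios of the group means were 0.0095 for Sdha, 0.06 for Sdhb, -0.0018 for Sdhc and 0.22 for Sdhd. The catalytic flavoprotein Sdha stood at 302, 319 and 277 CPM in inj libraries 2, 3 and 4, against 369, 363 and 347 CPM in Sham libraries 1, 1-RNA and 3. The iron-sulphur subunit Sdhb stood at 129, 126 and 132 CPM in inj libraries 2, 3 and 4, against 171, 140.4 and 140.0 CPM in Sham libraries 1, 1-RNA and 3. Both showed inj libraries below Sham libraries. Of the membrane anchors, Sdhc stood at 157, 141 and 157 CPM in inj libraries 2, 3 and 4, against 190.1, 171 and 194 CPM in Sham libraries 1, 1-RNA and 3. Sdhd stood at 98.1, 97.5 and 112 CPM in inj libraries 2, 3 and 4, against 118, 94.9 and 109 CPM in Sham libraries 1, 1-RNA and 3. Sdhc also lay below without overlap, while Sdhd overlapped. The log2 fold changes were -0.27 ± 0.13 (SE, adjusted p = 0.16), -0.22 ± 0.13 (SE, adjusted p = 0.22), -0.28 ± 0.13 (SE, adjusted p = 0.12) and -0.06 ± 0.14 (SE, adjusted p = 0.75).

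In complex V, the catalytic F1 subunits alpha and beta, Atp5a1 (RefSeq Atp5f1a) and Atp5b (Atp5f1b), had log2 fold changes of 0.10 ± 0.14 and 0.17 ± 0.16 (SE) and did not pass. Neither did the central stalk genes Atp5c1, Atp5d and Atp5e, between -0.13 and 0.18, or the genes of the proton-carrying c ring, Atp5g1, Atp5g2 and Atp5g3, between -0.03 and 0.20. Atp5s stood at 12.5, 15.05 and 16.8 CPM in inj libraries 2, 3 and 4, against 22.9, 19.3 and 28.5 CPM in Sham libraries 1, 1-RNA and 3. It was the member that fell, at -0.67 ± 0.20 (SE, adjusted p = 0.026). Atp5i (subunit e) at -0.47 ± 0.18 (SE, adjusted p = 0.061) and Atp5f1 (subunit b of the peripheral stalk) at -0.45 ± 0.16 (SE, adjusted p = 0.057) were below Sham in every inj library without passing. Atp5h, Atp5j and Atp5o of the peripheral stalk, Atp5j2 and Atp5l of the membrane part, and Atp5sl lay between -0.29 and 0.04 and did not pass.

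Groups did not overlap for 11 of 44 members above Sham, against 26.4% of all genes tested, and for 6 members below, against 21.9%. When library totals replaced TMM factors, all genes had a median of 0.28 and 15 members were called, all of them higher. The member median relative to all genes was 0.01 under that scaling and 0.01 under TMM, which nearly agree by construction, as a change of scale shifts all genes nearly alike. Members took 1.17% to 1.23% of counts in inj libraries and 0.839% to 0.922% in Sham libraries. Cox4i2 and Cox6a1 passed under all 14 alternatives, thinning of the inj libraries to the Sham depth included, but the number of members called was 2 without inj 2, 3 without inj 3, inj 4 or Sham 3, 4 without Sham 1 and 13 without Sham 1-RNA. With Sham 1 and Sham 1-RNA summed as 1 library, 8 members were called, 6 higher and 2 lower.

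Other mitochondrial genes gave the setting at day 7. Of complex I subunits, 3 of 33 rose and 1 fell, with Ndufb9, an accessory subunit, at 0.72 ± 0.14 (SE, adjusted p = 0.0032) and Ndufa5 at -0.53 ± 0.16 (SE, adjusted p = 0.027). Of assembly factors of complexes II to V, 1 of 29 rose and 2 fell. Those that fell were the complex II factor Sdhaf2 at -0.57 ± 0.14 (SE, adjusted p = 0.011) and Taco1, a translation activator of a mitochondrially encoded complex IV subunit, at -1.07 ± 0.28 (SE, adjusted p = 0.015). Of tricarboxylic acid cycle enzymes, 5 of 15 fell and none rose, with Suclg2 at -0.70 ± 0.14 (SE, adjusted p = 0.0032) and Dlat at -0.65 ± 0.15 (SE, adjusted p = 0.0068). Among regulators of mitochondrial biogenesis, 4 of 15 fell and none rose. The coactivator Ppargc1b averaged 2.12 ± 0.189 CPM in inj and 24.5 ± 6.57 CPM in Sham libraries (SD, n = 3 each), a log2 fold change of -3.53. Its relative Ppargc1a fell as well, at -1.40 ± 0.23 (SE, adjusted p = 0.0014). The transcription factors Nrf1 (-0.07) and Gabpa (0.06), the mitochondrial DNA factor Tfam (-0.35) and cytochrome c, Cycs (-0.35), did not pass. No carrier or nucleotide exchange gene of 9 passed, and 1 of 17 glycolytic enzymes fell.

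At day 30 in males, no member passed between In and S libraries, although 42 of 43 members tested had a positive log2 fold change, against 52% of all genes. The median was 0.31 for members and 0.02 for all 15074 genes tested, and by complex 0.18 for II, 0.35 for III, 0.40 for IV and 0.30 for V. No gene at all passed (0% called). At an unadjusted p under 0.05 there were 9 members, against 8.17% of all genes, and DESeq2 and limma-voom called no member. The member median was 0.30 under DESeq2, with 42 of 43 positive, and 0.13 under limma-voom with sample weights, with 38 of 43 positive. Groups did not overlap for 12 members above S, against 6.3% of all genes, and for 1 below, against 5.17%.

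Cox5b, a zinc-binding complex IV subunit, stood at 206, 116 and 125 CPM in male In libraries 1, 2 and 3, against 109.6, 80.3 and 93.4 CPM in male S libraries 1, 2 and 4. Cox8a stood at 690.0, 407 and 448 CPM in male In libraries 1, 2 and 3, against 403, 245 and 314 CPM in male S libraries 1, 2 and 4. Atp5j, a coupling factor of the peripheral stalk, stood at 205, 134 and 153 CPM in male In libraries 1, 2 and 3, against 123, 112 and 111 CPM in male S libraries 1, 2 and 4. In each gene male In 1 was well above the other libraries, and the remaining In libraries were above the highest S library. The log2 fold changes were 0.66 ± 0.22 (SE, adjusted p = 0.6), 0.68 ± 0.24 (SE, adjusted p = 0.6) and 0.50 ± 0.18 (SE, adjusted p = 0.6). Atp5sl was the member below zero, with 25.7, 28.8 and 28.5 CPM in male In libraries 1, 2 and 3, against 33.9, 30.95 and 36.5 CPM in male S libraries 1, 2 and 4 and a log2 fold change of -0.29 ± 0.16 (SE, adjusted p = 0.62). Of complex II, Sdha stood at 120.1, 157 and 149 CPM in male In libraries 1, 2 and 3, against 128, 137 and 151 CPM in male S libraries 1, 2 and 4. Sdhb stood at 107, 73.8 and 81.99 CPM in male In libraries 1, 2 and 3, against 75.99, 85.1 and 83.2 CPM in male S libraries 1, 2 and 4. Sdhc stood at 115, 111 and 125 CPM in male In libraries 1, 2 and 3, against 92.9, 79.9 and 122 CPM in male S libraries 1, 2 and 4. Sdhd was the complex II gene whose groups did not overlap, with 64.8, 64.3 and 69.4 CPM in male In libraries 1, 2 and 3, against 57.8, 42.8 and 59.9 CPM in male S libraries 1, 2 and 4. The log2 fold changes were 0.04 ± 0.15 (SE, adjusted p = 0.95), 0.11 ± 0.16 (SE, adjusted p = 0.85), 0.25 ± 0.19 (SE, adjusted p = 0.7) and 0.31 ± 0.15 (SE, adjusted p = 0.62).

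Summed over all members, levels were 9838, 6613 and 6915 CPM in male In libraries 1, 2 and 3, against 6345, 5437 and 6352 CPM in male S libraries 1, 2 and 4. Male In 1 was the highest and male S 2 the lowest of the 6. Without these 2 libraries the median member log2 fold change was 0.06, with 27 positive and 16 negative. Both are the extremes of the members' own sums, so their joint omission lowers the difference by construction and is no test. Without male In 1 alone the median was 0.11 (35 of 44 positive), and without male S 2 alone 0.24 (41 of 43 positive). It was 0.42 without male In 2 and 0.38 without male S 4. Of oligodendrocyte markers, 11 of 12 had negative log2 fold changes with none called, and they summed to 10616 to 77727 CPM in male In and 48061 to 58927 CPM in male S libraries, lowest in male In 1. All 6 blood cell markers tested had positive ones with none called, and they summed to 34.5 to 618 CPM in male In and 35.3 to 89.99 CPM in male S libraries, highest in male In 1. No marker of either list in the table was at 0 in all libraries. The part of these in the member values was not tested. Complex I subunits had 33 of 34 positive log2 fold changes and ribosomal proteins 61 of 72, with none called in either list.

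**Figure D3:**
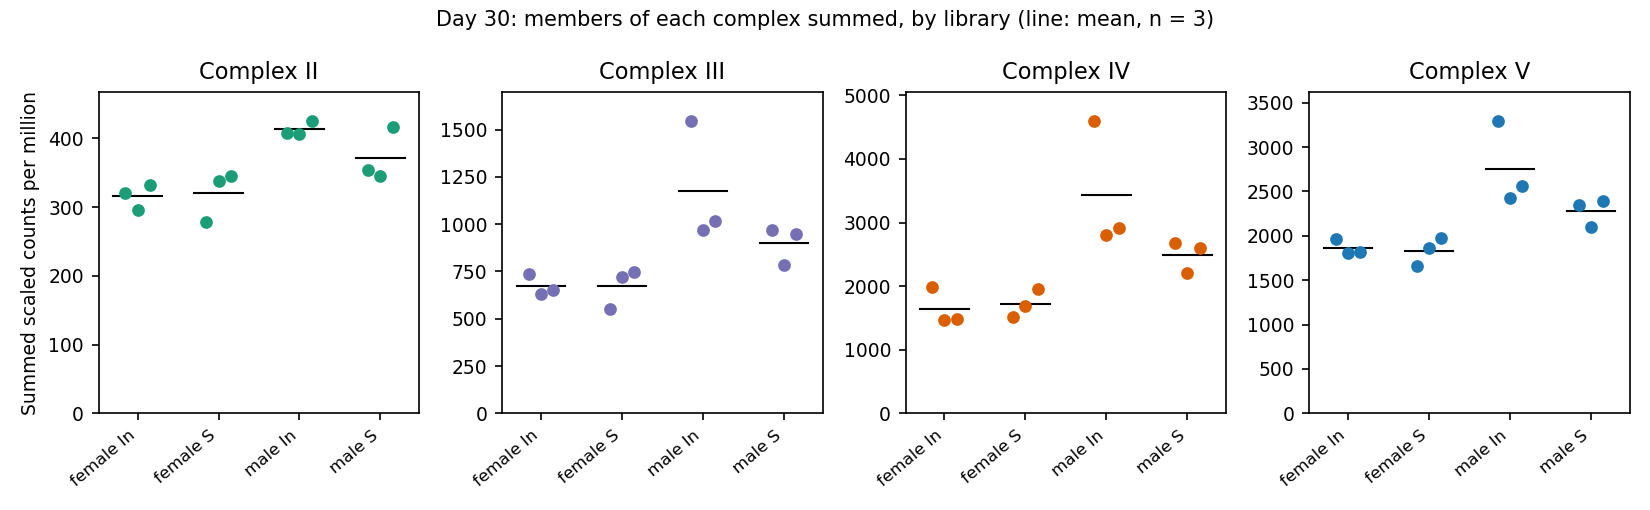
Summed scaled CPM of the members of each complex (vertical axes, from 0) in each of the 12 day 30 libraries, with a line at the mean of each group (n = 3). Male In 1 lies above all other libraries in complexes III, IV and V, and under this TMM scaling all female libraries lie below all male libraries there. As a share of library totals, members of all complexes together overlapped, at 0.552% to 0.649% in female and 0.367% to 0.712% in male libraries.

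At day 30 in females, members did not move in a common direction between In and S with all libraries included. None of 43 passed (edgeR's quasi-likelihood test), against 0.0332% of all genes, none reached an unadjusted p under 0.05, against 1.73% of all genes, and DESeq2 and limma-voom called none. Log2 fold changes were positive for 15 and negative for 28, against 49.5% positive among all genes, with a median of -0.03. These signs turned on single libraries, with 8 positive and 36 negative without female S 1, and 32 positive and 12 negative without female S 3. No member's groups were free of overlap, against 4.21% of all genes above and 3.81% below. The median standard error was 0.19, and a change must be several standard errors in size to pass. On simulated counts for the day 30 male comparison, with the same number of libraries per group, only 34% of 2-fold changes were recovered. That simulation gave all genes the same spread and changed genes picked at random among those with enough counts. Its 34% is thus not the recovery for these members in females, but changes of 2-fold and below could be missed here.

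The members with the smallest p in each direction were mostly low or uneven. Cox8b, the muscle isoform of subunit VIII in rodents, stood at 0.250, 0.673 and 3.03 CPM in female In libraries 1, 2 and 3, against 0.213, 0.458 and 0.471 CPM in female S libraries 1, 2 and 3. These were 5, 17 and 80 counts against 5, 11 and 11, and female In 3 was the high library (1.79 ± 0.96 SE, adjusted p = 1). Uqcrc1 stood at 113, 115 and 113 CPM in female In libraries 1, 2 and 3, against 50.1, 118 and 112 CPM in female S libraries 1, 2 and 3. Its In libraries were close together and female S 1 was low (0.28 ± 0.23 SE, adjusted p = 1). Cox6b2 stood at 1.85, 1.47 and 0.758 CPM in female In libraries 1, 2 and 3, against 0.809, 0.874 and 1.20 CPM in female S libraries 1, 2 and 3. Cox7a2l2 stood at 0.301, 0.673 and 0.417 CPM in female In libraries 1, 2 and 3, against 0.979, 0.458 and 0.941 CPM in female S libraries 1, 2 and 3. Both are genes of few counts whose groups overlapped (0.49 ± 0.61 SE, adjusted p = 1 and -0.75 ± 0.54 SE, adjusted p = 1). Cox4i2 stood at 13.4, 6.10 and 5.57 CPM in female In libraries 1, 2 and 3, against 13.6, 6.03 and 11.3 CPM in female S libraries 1, 2 and 3. Cox5b stood at 116, 85.5 and 75.9 CPM in female In libraries 1, 2 and 3, against 93.6, 103 and 117 CPM in female S libraries 1, 2 and 3. Their groups overlapped as well (-0.31 ± 0.35 SE, adjusted p = 1 and -0.18 ± 0.22 SE, adjusted p = 1). Of complex II, Sdha stood at 139, 129.9 and 146 CPM in female In libraries 1, 2 and 3, against 124, 153 and 149 CPM in female S libraries 1, 2 and 3. Sdhb stood at 59.9, 60.8 and 60.3 CPM in female In libraries 1, 2 and 3, against 54.6, 61.2 and 69.9 CPM in female S libraries 1, 2 and 3. Sdhc stood at 70.8, 57.5 and 69.5 CPM in female In libraries 1, 2 and 3, against 48.6, 70.3 and 76.3 CPM in female S libraries 1, 2 and 3. In these genes, as in Sdhd with 51.3, 47.5 and 55.5 CPM in female In libraries 1, 2 and 3, against 51.2, 53.1 and 48.9 CPM in female S libraries 1, 2 and 3, the groups overlapped. Their log2 fold changes were -0.04, -0.04, 0.02 and 0.01. Choroid plexus markers were higher in female In, 8 of 8 tested above S without overlap and 2 of them called, at 39.7 to 289.5 CPM in In and 7.66 to 8.81 CPM in S libraries, with Ttr, a defining marker, listed at 0 in all libraries. Their part in the member values was not tested.

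The isoform pairs did not separate In and S at day 30. Cox4i2 was 2.69%, 1.57% and 1.41% of its pair in female In libraries 1, 2 and 3, against 3.45%, 1.39% and 2.36% in female S libraries 1, 2 and 3. In males it was 1.09%, 1.20% and 1.40% in In libraries 1, 2 and 3, against 1.02%, 1.51% and 0.802% in S libraries 1, 2 and 4. Cox6a2 was between 0.661% and 1.51% of its pair in female In, between 0.808% and 1.56% in female S, between 0.446% and 0.872% in male In and between 0.355% and 1.03% in male S libraries. Ranges overlapped in each In and S pair (two-sided exact permutation p of 0.7, 0.7, 0.9 and 1). Between the sexes, the Cox4i2 share of every female In library was above that of every male In library (p = 0.1, the smallest possible, 0.5 adjusted over the 10 comparisons, exact permutation test), while female S and male S overlapped (p = 0.2). The Cox6a2 shares of female and male libraries overlapped in In (p = 0.2, exact permutation test) and in S (p = 0.3).

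The test of the difference, the female effect minus the male effect, also called no member (0% of all genes). Of 43 members, 39 had a negative difference, against a positive one for 48.9% of all genes, and the median was -0.34, against -0.01 for all genes. At an unadjusted p under 0.05 there were 2 members, Cox5b at -0.84 ± 0.31 (SE, adjusted p = 0.94) and Cox6a1 at -0.76 ± 0.34 (SE, adjusted p = 0.94), against 4.11% of all genes, and DESeq2 and limma-voom called none. Without male In 1 and male S 2 the median was -0.10, but these are the extremes of the members' own sums, so the difference shrinks by construction. The median was -0.18 without male In 1 alone and -0.32 without male S 2 alone. It was -0.33 under DESeq2, with 39 of 43 negative, and -0.19 under limma-voom with sample weights, with 37 of 43 negative.

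**Figure D4:**
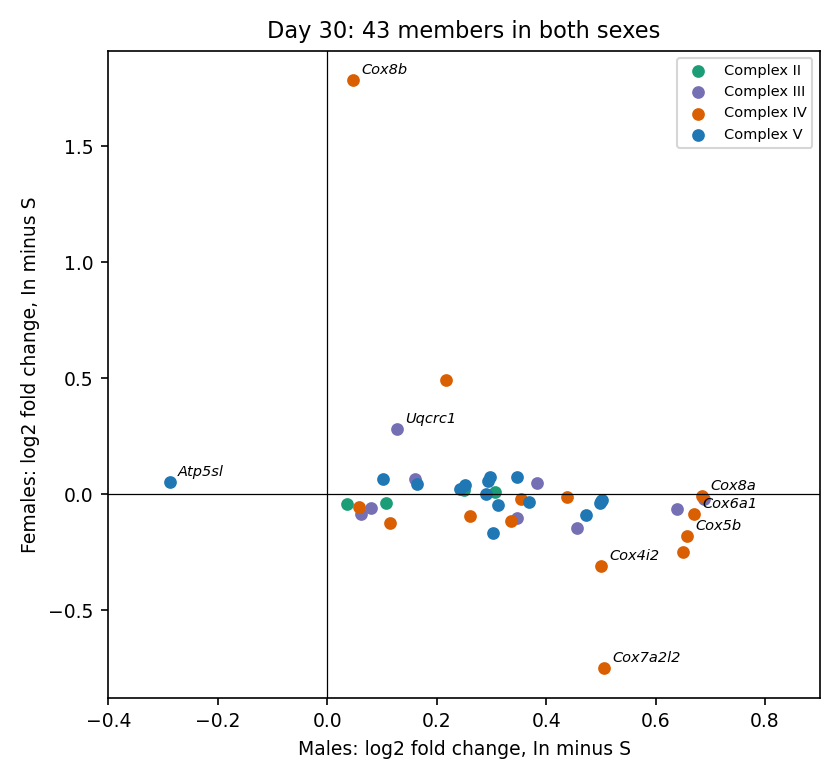
Log2 fold change of In minus S in females (vertical axis) against that in males (horizontal axis) for the 43 members tested at day 30, coloured by complex. In males 42 points lie right of zero, while in females most lie close to zero, with Cox8b, a gene of few counts, far above.

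Between the sexes at day 30, members were lower in females under TMM scaling, while of the members called under library totals most were higher in females. In the In libraries 27 of 43 were lower in female than in male and none was higher, against 12.7% of all genes called in either direction, 6.59% lower and 6.1% higher. In the S libraries 4 of 43 were lower and none higher, against 2.97% called in either direction, 1.27% lower and 1.7% higher. In S libraries 5 of 43 log2 fold changes were positive, against 52.6% of all genes, and in In libraries 1 was, against 51.9%. The S count was 0 without female S 1, female S 2 or male S 4, 2 without female S 3 or male S 2, and 16 without male In 1, and the In count was 14 without female In 2. Male In 1 is not an S library and enters the S comparison only through the fit that all day 30 libraries share. The median log2 fold change of female minus male was -0.72 in In and -0.42 in S libraries, against 0.03 for all genes in each. Groups did not overlap for 33 members below in In, against 15.5% of all genes, and for 21 in S, against 11.9%. In S libraries 1 member, Uqcrb, was above without overlap, against 15.2% of all genes, and in In libraries none was, against 17.6%.

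The members called in both groups under TMM were Atp5g2, Atp5l and Cox7a2l. In S the calls of Atp5g2 and Atp5l were lost in 5 of 20 alternatives and that of Cox7a2l in 7, library totals and the omission of female S 1, female S 2 or male S 4 among them. In In each was lost in 1 of 20, library totals, under which Cox7a2l turned to 0.090 in S and 0.0036 in In. Atp5l, subunit g of the membrane part, stood at 75.2, 66.3 and 67.3 CPM in female In libraries, against 203, 125 and 128 CPM in male In libraries. It stood at 60.1, 71.4 and 71.6 CPM in female S libraries, against 127, 126 and 129.6 CPM in male S libraries. Female libraries were below male libraries in both groups, with log2 fold changes of -1.13 ± 0.18 (SE, adjusted p = 0.0023) in In and -0.92 ± 0.18 (SE, adjusted p = 0.014) in S. Atp5g2, a gene for subunit c, stood at 96.2, 68.95 and 67.1 CPM in female In libraries, against 215, 143 and 163 CPM in male In libraries. It stood at 66.3, 67.9 and 88.9 CPM in female S libraries, against 157, 131 and 137 CPM in male S libraries. Its log2 fold changes were -1.16 ± 0.19 (SE, adjusted p = 0.0026) in In and -0.93 ± 0.19 (SE, adjusted p = 0.019) in S, again without overlap. Cox7a2l, which helps join complexes III and IV into supercomplexes, stood at 159.9, 118 and 109 CPM in female In libraries, against 262, 230.3 and 217 CPM in male In libraries. It stood at 124, 130.2 and 146 CPM in female S libraries, against 223, 214 and 245 CPM in male S libraries. The groups did not overlap (-0.88 ± 0.16 SE, adjusted p = 0.0041 in In and -0.77 ± 0.16 SE, adjusted p = 0.021 in S). Atp5sl stood at 22.7, 20.01 and 24.3 CPM in female S libraries, against 33.9, 30.95 and 36.5 CPM in male S libraries. It was called in S (-0.60 ± 0.15 SE, adjusted p = 0.049) and did not pass in In (-0.26 ± 0.15 SE, adjusted p = 0.29), but the S call was lost in 14 of 20 alternatives, with a log2 fold change of 0.26 under library totals.

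Fold changes were uneven among members in In libraries under TMM scaling. Uqcr11 stood at 154, 121 and 113 CPM in female In libraries, against 496, 266 and 275 CPM in male In libraries. Cox8a stood at 256, 171 and 179 CPM in female In libraries, against 690.0, 407 and 448 CPM in male In libraries. Both were lower in every female library, at -1.42 ± 0.25 (SE, adjusted p = 0.0036) and -1.35 ± 0.24 (SE, adjusted p = 0.0035). Atp5e of the F1 stalk (-1.41 ± 0.27 SE, adjusted p = 0.0057), Uqcrq (-1.25 ± 0.25 SE, adjusted p = 0.0061) and Cox6a1 (-1.23 ± 0.25 SE, adjusted p = 0.0057) were lower too. Cox7c, a small complex IV subunit, stood at 147, 107 and 113 CPM in female In libraries, against 331, 214 and 251 CPM in male In libraries. Atp5g3, another gene for subunit c, stood at 72.3, 74.7 and 74.3 CPM in female In libraries, against 147, 116 and 125 CPM in male In libraries. Neither overlapped (-1.11 ± 0.20 SE, adjusted p = 0.0034 and -0.81 ± 0.15 SE, adjusted p = 0.0039). By contrast Sdha stood at 139, 129.9 and 146 CPM in female In libraries, against 120.1, 157 and 149 CPM in male In libraries. Sdha (-0.04 ± 0.15 SE, adjusted p = 0.9), Atp5a1 (-0.08 ± 0.14 SE, adjusted p = 0.75), Atp5b (-0.13 ± 0.14 SE, adjusted p = 0.58), Uqcrc2 (-0.23 ± 0.16 SE, adjusted p = 0.35) and Uqcrc1 (-0.24 ± 0.23 SE, adjusted p = 0.54) did not pass. Cox7a2l2, with 6 to 17 counts in female In and 30 to 68 in male In libraries, stood at 0.301, 0.673 and 0.417 CPM in female In libraries, against 6.46, 2.16 and 3.36 CPM in male In libraries, a log2 fold change of -3.07 ± 0.55 (SE, adjusted p = 0.0034). Cox5b, Cox6a2, Cox4i2, Uqcrb and Sdha had log2 fold changes above zero in S (0.15, 0.45, 0.51, 0.19 and 0.04) and did not pass there. All these values, those near zero included, are the ones under TMM. With library totals, all genes had a median of 0.94 in In. The In calls of Uqcr11, Cox8a, Cox7c and Atp5g3 were lost there, and Atp5g3 turned to 0.11, while that of Cox7a2l2 held.

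**Figure D5:**
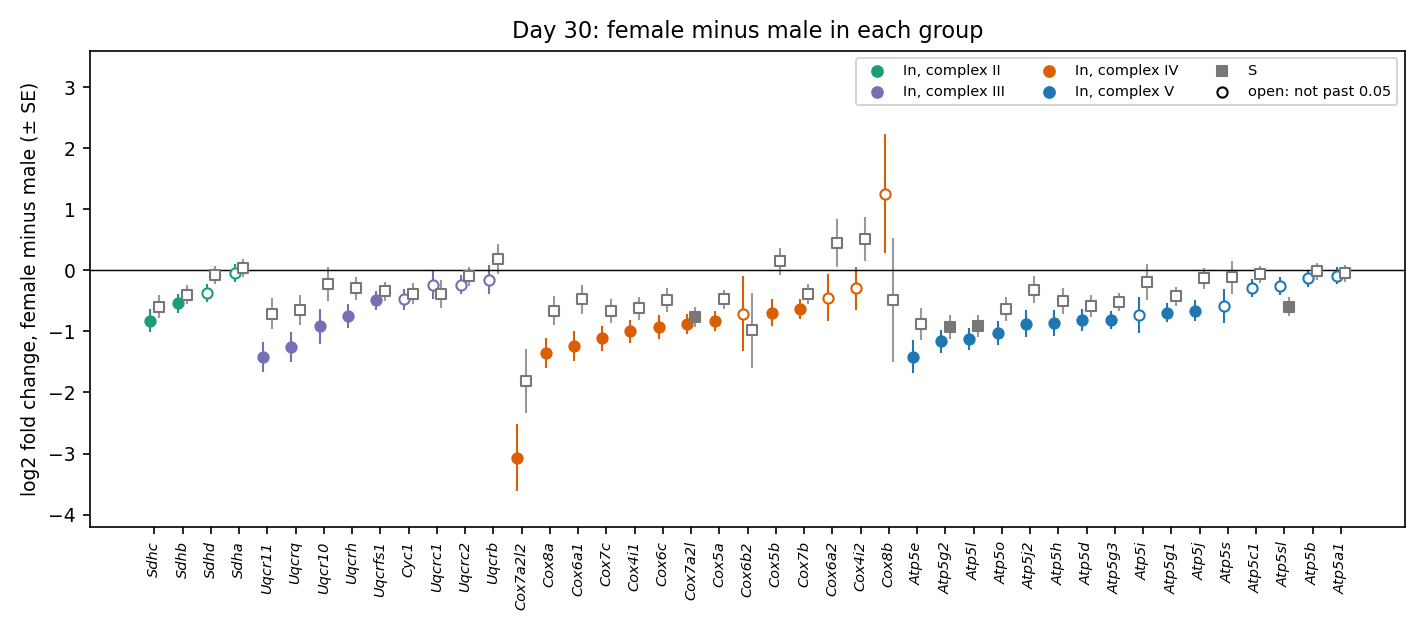
Log2 fold change of female minus male (vertical axis, bars ± SE) for the 43 members tested at day 30, in In libraries (coloured circles) and S libraries (grey squares), ordered by complex. Filled symbols passed an adjusted p of 0.05: 27 in In and 4 in S, all below zero under TMM scaling (library totals give 9 higher and 1 lower in In, and 17 higher in S), while Sdha, Atp5a1 and Atp5b lie near zero in both.

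A ratio within a library does not depend on scaling. The summed counts of 8 complex IV subunits (Cox4i1, Cox5a, Cox5b, Cox6a1, Cox6c, Cox7b, Cox7c and Cox8a) were divided by those of Atp5a1 and Atp5b, a choice made after the values were seen and so not tested. The ratio was 2.10, 1.51 and 1.51 in female In libraries 1, 2 and 3, and 1.75, 1.73 and 2.04 in female S libraries 1, 2 and 3. It was 4.70, 2.64 and 2.75 in male In libraries 1, 2 and 3, and 2.71, 2.44 and 2.67 in male S libraries 1, 2 and 4. All 6 female libraries were below all 6 male libraries, and male In 1 was far above the rest. At day 7 the ratio was 1.93, 1.81 and 2.14 in inj libraries 2, 3 and 4, against 1.70, 1.46 and 1.74 in Sham libraries 1, 1-RNA and 3, with all inj libraries above. Of the 8 subunits, Cox6a1, Cox7c and Cox8a were already called lower in female In libraries under TMM, and Cox4i1, Cox6a1 and Cox8a higher in inj. Atp5a1 and Atp5b were called in neither comparison. Both separations thus follow at least in part from the choice of genes and are no test.

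Other measures also differed between the sexes. The 13 mitochondrially encoded genes took 27.1% to 37.5% of counts in female and 53.7% to 60.3% in male libraries, and 11 of 13 were lower in female In and 10 of 13 in female S. Cytosolic ribosomal proteins were lower for 67 of 72 in In and 48 of 72 in S, and complex I subunits for 24 of 34 in In and 2 of 34 in S. Endothelial markers were higher in female for 5 of 10 in In and 5 of 10 in S, with summed levels of 1205 to 1532 CPM in female and 978 to 1175 CPM in male libraries. Pericyte and smooth muscle markers were higher for 4 of 11 tested in each of In and S (599 to 1094 CPM in female, 374 to 876 CPM in male libraries), with Myh11 at 0 throughout. Of microglia and macrophage markers, 2 of 14 were higher and 2 lower in In, and 2 were higher in S (1706 to 2591 CPM in female, 1425 to 3030.0 CPM in male libraries). Of astrocyte markers, 2 of 10 were lower in In and 1 in S (1326 to 3051 CPM in female, 2407 to 3870.2 CPM in male libraries). Choroid plexus markers were higher for 6 of 8 in In and none in S, 1 of 10 excitatory neuron markers was lower in each, and 1 of 13 pan-neuronal markers was higher in In. Reads aligned to more than 1 place made up 16.4% to 19.5% of the reads tallied in female and 17.4% to 25.6% in male libraries other than male S 4, at 40.6%. Reads that could belong to more than 1 gene made up 1.73% to 2.18% in female and 0.953% to 1.21% in male libraries, without overlap. Unaligned reads were highest in male S 2 (2.43%) and male In 1 (2.33%), the libraries that stand apart above. The part of these in the member values was not tested, and sex and any batch of library making cannot be told apart. TMM factors were 1.19 to 1.52 in female and 0.676 to 0.842 in male libraries. When library totals set the scale, all genes had a median of 0.94 in In and 0.88 in S, and members were called higher in 9 and lower in 1 in In, and higher in 17 in S. Log2 fold changes were then positive for 30 of 43 members in In and 38 of 43 in S, with member medians of 0.16 and 0.42. Relative to all genes, the member median was -0.78 in In and -0.46 in S under library totals, against -0.75 and -0.45 under TMM. A change of scale shifts all genes nearly alike, so this closeness holds by construction and is no check on the scaling. With totals that leave out the mitochondrially encoded genes, 19 members were lower in In and 3 in S.

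The male effect at day 30 minus that at day 7 was also fitted over the 12 male libraries, for the 43 members listed in both tables. No member passed (edgeR's quasi-likelihood test), against 13% of all 11693 genes tested (5.27% higher, 7.71% lower), 7 reached an unadjusted p under 0.05, against 27.4% of all genes, and DESeq2 called 2 and limma-voom 4. Over the 41 members with at least 100 counts in each table the median difference was 0.31, with 34 positive, against a median of 0.07 and 53.9% positive for all genes. Atp5s (1.03 ± 0.33 SE, adjusted p = 0.054) and Atp5j (0.72 ± 0.25 SE, adjusted p = 0.073) had the smallest p above zero. Cox4i2 (-1.08 ± 0.41 SE, adjusted p = 0.1) had the smallest below it, with 1.64 at day 7 and 0.50 at day 30. Tables were counted separately by day, so these differences also carry any difference in counting. Without male In 1 and male S 2, the extremes of the members' own sums, the median over all 43 was 0.09, against 0.04 for all genes. That omission lowers the member median by construction. The member median was 0.12 without male In 1 alone and 0.26 without male S 2 alone. Over all 43, which take in Cox7a2 and Atp5f1 with almost no counts at day 30, 35 were positive under TMM and 18 under library totals. All genes had a median of -0.28 under library totals. Ppargc1b had 4.65 ± 0.63 (SE, adjusted p = 0.00031), while 11 of 14 microglia, 10 of 10 endothelial and 10 of 12 pericyte markers were called lower. The part of these markers in the member differences was not tested.

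Not every member could be followed. Cox6b1 was listed at day 7 only, and Cox6c-ps1, Cox7a1, Cox7a2l2, Cox7b2, Cox8b and Cox8c at day 30 only. Of 49 members at day 30, 6 did not pass the filter on low counts. Cox7a2 had 0 counts in all 12 libraries at day 30, where 3 counts would be 0.288 CPM at most, although it had 285 to 3953 counts per library at day 7. Atp5f1 had 0 to 7 counts at day 30 and 71 to 428 at day 7. Cox7a1, the muscle isoform of subunit VIIa, had 2 counts in 1 library, Cox7b2 at most 10, and Cox8c, a testis isoform, and Cox6c-ps1 none. The sources used here do not say how reads with more than 1 place were counted at day 7, and genes with near-identical copies elsewhere in the genome, as many small subunits have, carry that uncertainty.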

How the data were processed

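PolyA RNA of rat motor cortex was sequenced in 18 libraries, and the deposited values are raw counts per gene symbol, made by the authors, in 1 table per day. The submitters' processing notes name HISAT2, the build rn6 and edgeR, with no versions. Summary lines at the end of the day 30 table were left out of totals. All columns were mapped, with 0 left unmapped. Groups followed the labels' day, sex and letters.

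Counts were fitted as deposited with edgeR 4.0.16 in R 4.3.3 (filterByExpr, TMM, robust quasi-likelihood test) over all genes, with Benjamini-Hochberg adjusted p under 0.05 as a call. Day 30 groups were fitted together, and the comparison of days used the male libraries on genes of both tables. Isoform shares were compared by exact permutation tests (scipy 1.17.1). Biological coefficients of variation were 0.175 at day 7, 0.259 at day 30 and 0.226 over males. On simulated counts, 78% of 2-fold and 100% of 4-fold changes were recovered at day 7 (11827 genes), 34% and 99% in the day 30 male comparison (14782 genes), and 19% and 88% in the comparison of days (11534 genes). Each simulation gave all genes the same spread and changed genes picked at random among those with enough counts, so these shares are not those of the members. Counting floors (3 counts) cover counting error only. Alternatives were other scalings, filters, DESeq2 1.42.0, limma 3.58.1, leaving out libraries, and summing Sham 1 with Sham 1-RNA. Thinned inj counts and totals without mitochondrially encoded genes were added after the data were seen.

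Per-library values are given for up to 8 called members per direction, or 3 per direction by p where none passed, complex II and the isoform pairs, and other genes are up to 2 called per list plus Cycs, Tfam, Ppargc1a, Nrf1 and Gabpa. Members and lists were chosen with earlier results of these data known. Uqcrc1 at day 7, the near-threshold members, the subunit ratio and the printed promoters were chosen after values were seen. Levels were not compared between genes, for want of transcript lengths.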

Additional observations from a re-analysis of the deposited data

How the results depend on the processing

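At day 7, 7 members were called, against 15 with library totals as scale, 11 with limma-voom, 10 with DESeq2 and 2 to 13 when 1 library was left out. Of the 7, Cox8a lost its call in 3 of 14 alternatives, Cox4i1 and Cox7a2 in 4, and Uqcr11 and Atp5s in 5. Of the calls in S, Atp5sl was lost in 14 of 20 alternatives, Cox7a2l in 7, and Atp5g2 and Atp5l in 5, the replicate block among them for each. Counts of 0 for In minus S in males, in females and for their difference held under every alternative run. For female minus male in S, 4 were called, against 17 with library totals (all higher), 12 with DESeq2, 15 with limma-voom, 0 with the replicate block and 0 to 16 when 1 library was left out, 16 without male In 1. That library is in neither S group, but all day 30 libraries share 1 fit, with its filter, TMM factors and estimate of the spread. For female minus male in In, 27 were called, against 10 with library totals, 25 with the replicate block and 14 to 27 when 1 library was left out. For the difference between days, 0 were called, against 1 with library totals, 2 with DESeq2, 4 with limma-voom and 0 to 2 when 1 library was left out. Library totals raised the log2 fold changes of female minus male in general, to 38 of 43 members positive in S (5 under TMM) and 30 of 43 in In (1 under TMM). Of the members with calls followed, they turned Cox7a2l (0.090) and Atp5sl (0.26) positive in S, and Atp5g3 (0.11) and Cox7a2l (0.0036) positive in In, where the median of all genes itself shifted upward. The cause of the other changes was not tested.

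The replicate block used the label numbers. Deviations of same-numbered libraries correlated at 0.07 and 0.0040 in males and at 0.05, 0.13 and 0.05 in females, and 4 of 6 female libraries correlated best with their own number, so the numbers were not taken to pair libraries. At day 7 the groups share only 1 number, and no block could be fitted. Depth limits Cox4i2, Cox6a2 and Cox6b2 in Sham libraries, and Cox8b and Cox7a2l2 at day 30.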
